A study of Mus musculus with 10 samples.

Results

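The genes for the proteins of the cytosolic ribosome were followed in mouse morulae that carry or lack Jarid2, whose product works with the Polycomb repressor complex PRC2. They were chosen by name: Rpl or Rps followed by a number, together with Rplp0, Rplp1, Rplp2 and Rpsa, leaving out names that mark a pseudogene. This gave 77 of 35976 genes, of which 31 encode proteins of the small subunit (Rps names and Rpsa) and 46 proteins of the large subunit (Rpl names). All 77 had counts above 0 in all 10 libraries and passed the filter on low counts in each fit.

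Polyadenylated RNA of mouse embryos from BDF1 x PWK was sequenced at the morula stage. Jarid2 knockout (KO) single female embryos gave 3 libraries (replicates 1, 3 and 4), and wild-type (WT) single female embryos gave 3 (replicates 1 to 3). Pools of about 20 embryos gave 2 libraries labelled Jarid2 knockout (KO pools 1 and 2) and 2 labelled control (CTR pools 1 and 2). The sources used here do not state how the allele was made, which exons it lacks, what genotype the control pools had beyond that label, or whether the pools came from separate litters. For pools, p-values therefore rest on a spread between libraries that may be technical.

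Total counts were 18015186 to 18696312 in KO single embryos and 14830332 to 17534188 in WT single embryos, ranges that did not overlap, and 41003216 to 49861963 in the 4 pools. On the CPM scale (counts divided by the library total, at a common size), Jarid2 had 156, 319 and 61.3 in KO single embryos, against 580, 686 and 776 in WT ones (log2 change -1.92, SE 0.43, edgeR adjusted p = 0.0342). It had 181 and 158 CPM in KO pools, against 442 and 496 CPM in CTR pools (log2 change -1.55, SE 0.18, edgeR adjusted p = 0.0792). The 10 morula markers summed to 1760 to 3144 CPM in KO single embryos, 2864 to 3218 CPM in WT ones and 1327 to 2028 CPM in pools. In KO single embryos 1 of the 10 was called lower by edgeR at 5% (10%, against 3.21% of all genes). Markers of blood and of cumulus or granulosa cells summed to at most 1.65 and 0.877 CPM, and 6 oocyte markers to 36.4 to 98.0 CPM in KO single embryos, 47.6 to 163 CPM in WT ones and 61.3 to 74.3 CPM in pools. What part depth or these markers have in the results was not tested. Genes of the Y chromosome summed to 0 to 0.167 CPM in single embryos and to 118 to 128 CPM in pools, which thus held male embryos as well.

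The ribosome is built in the nucleolus from ribosomal RNA and 1 copy of most of these proteins, so their amounts are usually held close to each other. Their mRNAs are short and abundant, and most begin with a cytosine followed by a run of pyrimidines, the terminal oligopyrimidine tract, through which mTOR and LARP1 control their translation. In mouse embryos new ribosomes are made once the embryo's own genome is transcribed, and by the morula stage ribosome synthesis is under way.

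By GENCODE M21 on GRCm38 (mm10), the transcript taken for each gene had a median of 729 bases (271 to 3706) over the 77 members, against 2347 over 20434 coding genes. The members lay on 19 chromosomes, with 14 on chromosome 7 and 4 on the X. Small nucleolar RNAs, guides for modifying ribosomal RNA that are cut from introns, were annotated within 30 of the 77 genes (39%, 58 such RNAs), against 1.25% of coding genes.

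The bases around the annotated start are shown for the 8 of the 10 members that rose in KO single embryos for which a window was matched, and for 3 that lay lowest in that comparison, since the pyrimidine tract is what the family is known for there. They run from 40 bases before to 10 after the start given by RefSeq on GRCm38.p6, 5′ to 3′ on the gene's strand, with the longest pyrimidine run of the window in capitals (the first, where 2 are equal).
Rps6, chr4:86857358-86857407, minus strand: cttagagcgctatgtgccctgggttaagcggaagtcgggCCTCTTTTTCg
Rpl15, chr14:18270977-18271026, minus strand: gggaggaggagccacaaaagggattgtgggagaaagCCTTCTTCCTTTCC
Rpl5, chr5:107900488-107900537, plus strand: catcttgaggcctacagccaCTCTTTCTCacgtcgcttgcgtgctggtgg
Rpl13, chr8:123102310-123102359, plus strand: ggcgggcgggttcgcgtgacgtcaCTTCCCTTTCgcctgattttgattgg
Rpl6, chr5:121204461-121204510, plus strand: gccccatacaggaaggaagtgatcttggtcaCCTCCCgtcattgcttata
Rps3a1, chr3:86142659-86142708, minus strand: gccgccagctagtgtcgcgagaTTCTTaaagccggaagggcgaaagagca
Rps13, chr7:116334181-116334230, minus strand: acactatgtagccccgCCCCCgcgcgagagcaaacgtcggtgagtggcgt
Rpl41, chr10:128549159-128549208, minus strand: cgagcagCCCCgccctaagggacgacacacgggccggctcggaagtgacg
Rps12, chr10:23787200-23787249, minus strand: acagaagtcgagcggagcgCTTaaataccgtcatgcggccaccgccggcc
Rpl12, chr2:32961672-32961721, plus strand: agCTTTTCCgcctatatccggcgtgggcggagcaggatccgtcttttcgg
Rps28, chr17:33824553-33824602, minus strand: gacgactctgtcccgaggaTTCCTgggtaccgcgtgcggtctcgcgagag

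In Rps6 and Rpl15 the run of 10 and 14 pyrimidines spanned the annotated start, and in Rpl5 and Rpl13 runs of 9 and 10 lay before it. The other 4 that rose had shorter runs, of 6 in Rpl6, 5 in Rps3a1, 5 in Rps13 and 4 in Rpl41. Of those that lay lowest, Rpl12 had a longest run of 7, Rps28 of 5 and Rps12 of 3, so the lengths in the groups overlapped. RefSeq promoter windows (250 bases before to 50 after the start) were matched for 57 of the 77 members. Within 30 bases on each side of the start, the longest run had a median of 9 pyrimidines in members and 6 over all 27025 genes with a window, and a run of at least 8 stood in 56.1% of members against 25.8% of all genes. The letters CTCTTT stood on the gene's strand in 40.4% of members and 13.7% of all genes, but on the other strand in 12.3% and 14.0%. CTTTCC, which can overlap CTCTTT, stood on the gene's strand in 40.4% and 16%, and on the other in 17.5% and 16.1%. CCGGAAG, the core bound by ETS factors such as GABPA, stood on either strand in 42.1% and 9.93%, and TATAAA in 10.5% and 15.7%. These are letter matches and say nothing of binding in these embryos.

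The members took a larger share of the counts in KO than in control libraries of both sets. In single embryos they held 5.98%, 6.5% and 5.65% of all counts in KO replicates 1, 3 and 4, against 5.33%, 4.99% and 4.95% in WT replicates 1 to 3. The means were 6.04% ± 0.429 in KO and 5.09% ± 0.21 in WT (SD, n = 3 each), a difference of 0.952 percentage points, and the groups did not overlap. In pools the share was 6.31% and 7.02% in KO, against 5.98% and 5.82% in CTR, with means of 6.66% ± 0.505 and 5.90% ± 0.112 (SD, n = 2 each). That difference was 0.763 percentage points with all pools and 0.406 without KO pool 2. A share is relative to all other transcripts, and in these bulk samples fewer cells and less RNA per cell cannot be told apart.

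Both subunits had a higher mean share in KO. The small subunit held 2.62% ± 0.184 in KO and 2.28% ± 0.130 in WT single embryos, and the large subunit 3.42% ± 0.245 in KO and 2.82% ± 0.101 in WT (SD, n = 3 each). The small-to-large ratio was 0.765 to 0.770 in KO and 0.767 to 0.830 in WT single embryos, where WT replicates 1 and 3 lay at 0.830 and 0.827. In KO pools it was 0.794 and 0.798, against 0.805 and 0.773 in CTR pools.

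**Figure D1:**
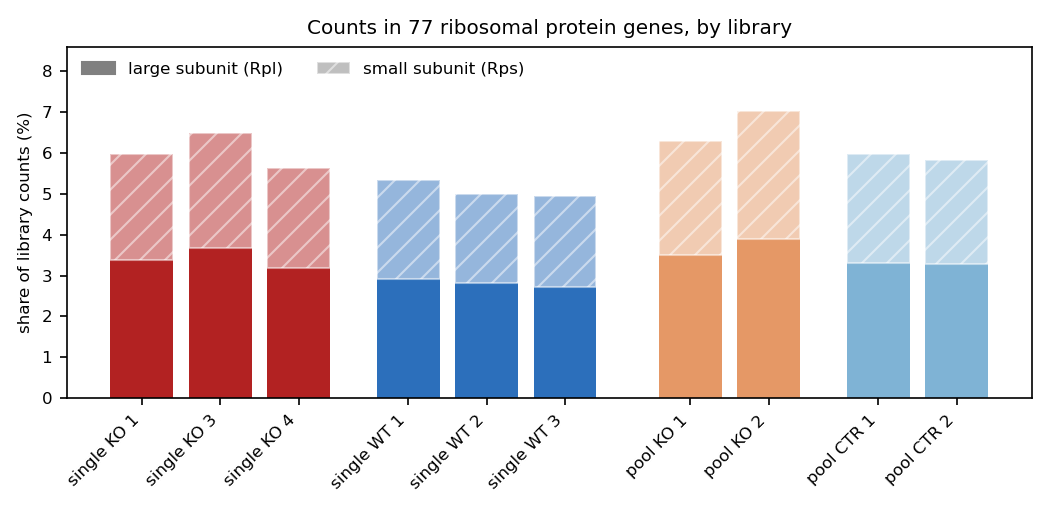
Share of each library's counts (%, vertical axis) in the 77 ribosomal protein genes, with 1 bar per library, solid for the large and hatched for the small subunit. Single KO embryos stand at 5.65% to 6.5% and single WT ones at 4.95% to 5.33%; KO pools stand at 6.31% and 7.02% and CTR pools at 5.98% and 5.82%.

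Levels differed widely between members, even after division by transcript length. Rpl41, which encodes the smallest protein of the ribosome, stood highest with a mean over all libraries of 4411 CPM per kb, and Rps14 and Rps29 were also among the highest, with means of 3320 and 3055 CPM per kb. Rpl27a stood lowest at 136 CPM per kb, below Rps20 (233) and Rpl6 (276 CPM per kb). In CPM without regard to length, Rpl4 was among the highest and Rpl27a and Rpl28 were lowest. Rpl4 had 2163, 2366 and 2251 CPM in KO single embryos, against 1695, 1947 and 1842 CPM in WT ones. Rpl27a had 190, 207 and 185 CPM in KO single embryos, against 135, 125 and 147 CPM in WT ones. The mean over all libraries was above 1000 CPM for 13 members and below 300 CPM for 4. A level per kb depends on the transcript taken: that of Rps20 had 3706 bases, the longest of the members, and that of Rpl27a 1158.

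**Figure D2:**
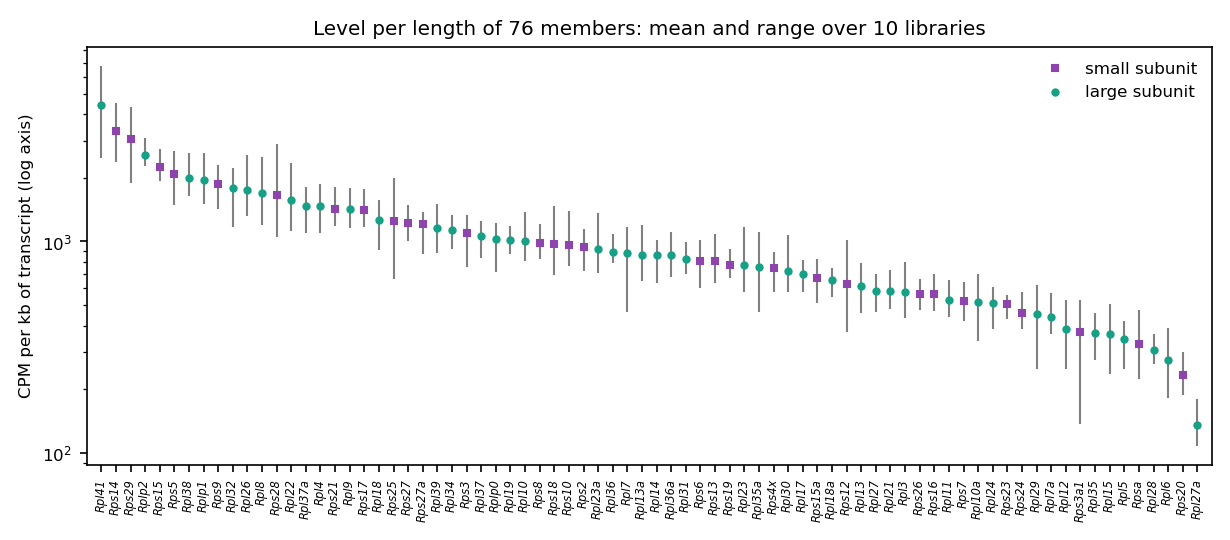
Level of 76 of the 77 members per length of transcript (CPM per kb, log axis), with the mean over 10 libraries as a point and the lowest to highest library as a line; squares are small-subunit and circles large-subunit genes. Rpl41 stands highest with a mean of 4411 and Rpl27a lowest with 136 CPM per kb.

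In single embryos, 10 members rose in KO and none fell (edgeR quasi-likelihood test, Benjamini-Hochberg at 5% over 13830 genes). The call rate over all genes was 1.16% higher and 3.21% lower, against 13.0% and 0% of members. Among the 2172 other genes with a mean of at least 100 CPM it was 4.88% higher and 9.16% lower. Those that rose were Rpl6, Rpl7, Rps3a1, Rpl15, Rps13, Rpl13, Rpl41, Rpl5, Rps6 and Rpl29, with log2 changes of 0.66 to 1.23 (median 0.82). Of the small subunit 3 of 31 members rose, and of the large subunit 7 of 46. The median log2 change was 0.31 over all 77 members, against -0.03 over all tested genes. It was 0.25 over those other genes of at least 100 CPM, so abundant genes in general lay near the members.

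Rpl6, a large-subunit protein on chromosome 5, had the smallest p. It had 486, 498 and 487 CPM in KO single embryos, against 237, 296 and 232 CPM in WT ones. The KO embryos lay within a narrow band that was well above every WT embryo, and the log2 change was 0.99 (SE 0.17, edgeR adjusted p = 0.0188). Rps3a1, the mouse gene for the small-subunit protein eS1, had the largest log2 change. It had 515, 465 and 483 CPM in KO single embryos, against 134, 248 and 262 CPM in WT ones. WT replicate 1 was the lowest library by far, and the log2 change was 1.23 (SE 0.25, edgeR adjusted p = 0.0271).

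Rpl5 binds 5S ribosomal RNA together with Rpl11, and when ribosome assembly is disturbed both can hold back MDM2, the ubiquitin ligase of p53. Rpl5 had 812, 804 and 738 CPM in KO single embryos, against 512, 515 and 512 CPM in WT ones, which lay very close to each other. Its log2 change was 0.66 (SE 0.16, edgeR adjusted p = 0.0418). Rpl11 had 467, 549 and 443 CPM in KO and 487, 415 and 386 CPM in WT single embryos. These groups overlapped, and its log2 change was 0.22 (SE 0.17, edgeR adjusted p = 0.484).

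Rps6 is the small-subunit protein phosphorylated by the S6 kinases downstream of mTOR. It had 891, 896 and 846 CPM in KO single embryos, against 528, 576 and 606 CPM in WT ones (log2 change 0.67, SE 0.16, edgeR adjusted p = 0.0419). Rps13, an early-binding small-subunit protein, had 636, 625 and 601 CPM in KO, against 377, 382 and 384 CPM in WT (log2 change 0.75, SE 0.16, edgeR adjusted p = 0.0309). No library of either gene crossed into the other group, and both spreads were small beside the gap.

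Of the other large-subunit genes, Rpl7 had 1184, 1078 and 1113 CPM in KO single embryos, against 537, 688 and 660 CPM in WT ones (log2 change 0.89, SE 0.17). Rpl15 had 404, 313 and 394 CPM in KO, against 189, 203 and 204 CPM in WT (0.96, SE 0.20). Rpl29 had 360, 308 and 362 CPM in KO, against 198, 145 and 225 CPM in WT (0.91, SE 0.22). In all 3 the lowest KO embryo was above the highest WT embryo. Rpl13 had 564, 616 and 600 CPM in KO, against 359, 407 and 376 CPM in WT (0.69, SE 0.16). Rpl41 had 2196, 1975 and 1718 CPM in KO, against 1083, 1412 and 1191 CPM in WT (0.73, SE 0.17). The edgeR adjusted p of these 5 genes ran from 0.0232 to 0.0454.

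Each of the 10 calls depended on which embryos were used. None was left when KO replicate 1, KO replicate 4, WT replicate 1 or WT replicate 3 was left out. Without WT replicate 2 there were 4 (Rpl6, Rpl7, Rps3a1 and Rpl41), and without KO replicate 3 there were 13. The count over all genes, 605 with all 6 embryos, moved with it: it was 66 without KO 1, 1 without KO 4, 41 without WT 1, 1 without WT 3, 519 without WT 2 and 1316 without KO 3. The direction of all 10 held in each of these fits. DESeq2 called 22 members higher and a fit over all 10 libraries 24, and both counts included the 10. Both also called more genes of any kind, 1957 of 13830 with DESeq2 and 1667 of 15878 in the joint fit. With the replicate number as a block, 0 members and 187 genes were called.

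**Figure D3:**
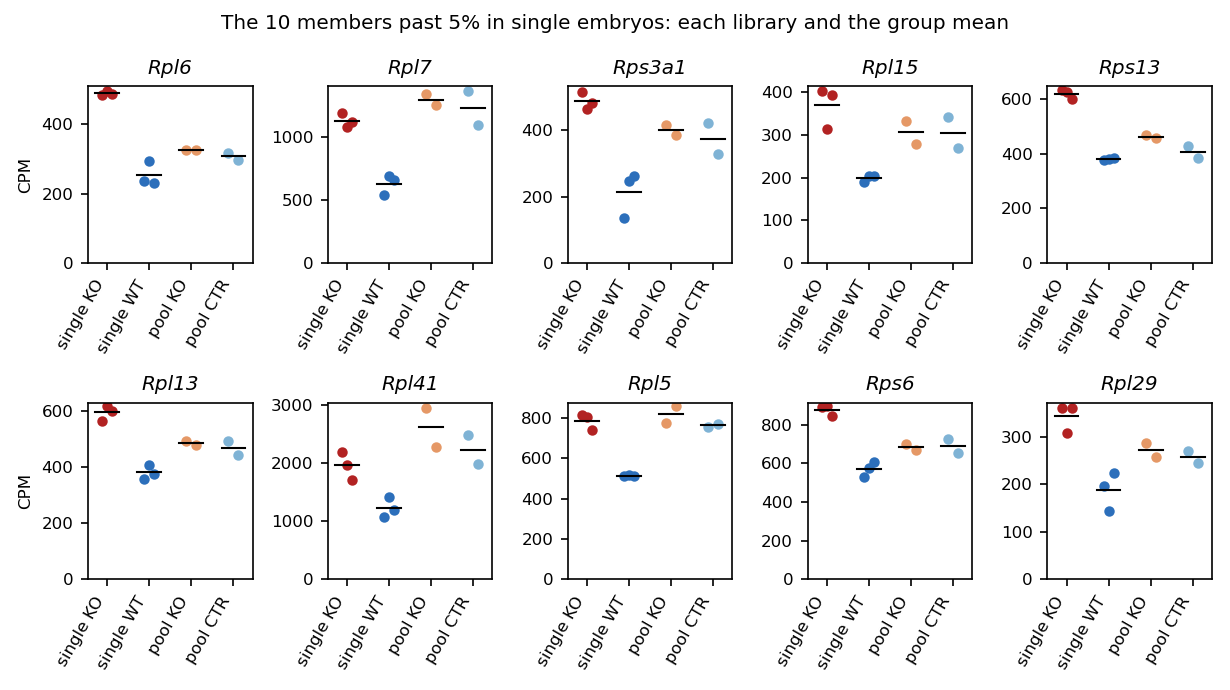
CPM (vertical axis, from 0) of the 10 members that rose in KO single embryos, 1 panel per gene, with a point for each library and a line at the group mean. In every panel the 3 KO single embryos lie above the 3 WT ones and all 4 pools lie above the WT single embryos.

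Most other members lay on the same side without passing. The log2 change was positive in 61 of 77 members (79.2%), against 48.3% of all tested genes and 1430 of the 2172 other genes with at least 100 CPM. An unadjusted p under 0.05 was reached by 32 members in the higher and 2 in the lower direction, 41.6% and 2.60% of members against 10.4% and 12.2% of all genes. In CPM, the KO embryos were all above the WT embryos in 39 members, 50.6% against 12.6% of all genes. The KO embryos were all below the WT embryos in 1 member, 1.3% against 15.3%. That 1 was Rpl12, a protein of the stalk base, with 392, 573 and 405 CPM in KO, against 655, 607 and 579 CPM in WT (log2 change -0.39, SE 0.17, edgeR adjusted p = 0.207).

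The lowest log2 change belonged to Rps12, a small-subunit protein that in Drosophila is needed for the competition between cells that differ in ribosomal gene dose. It had 245, 396 and 230 CPM in KO single embryos, against 500, 392 and 363 CPM in WT ones. KO replicate 3 lay among the WT embryos, and the log2 change was -0.50 (SE 0.22, edgeR adjusted p = 0.201). Rps28, which has a very short transcript, had 486, 491 and 381 CPM in KO, against 782, 470 and 563 CPM in WT (-0.37, SE 0.22, edgeR adjusted p = 0.34).

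Members of 1 functional group had unlike log2 changes. Of the P stalk, which recruits the elongation factors, Rplp0 had 1338, 1632 and 1667 CPM in KO and 978, 1433 and 1039 CPM in WT single embryos (log2 change 0.47, SE 0.18). Its partners Rplp1 and Rplp2 had log2 changes of -0.02 (SE 0.18) and 0.05 (SE 0.16). The sign of Rplp1 turned with DESeq2 size factors and with upper-quartile scaling, and none of the 3 passed (edgeR adjusted p 0.145 to 0.965). Rpsa, the small-subunit protein also known as the laminin receptor, had 359, 757 and 479 CPM in KO and 652, 524 and 559 CPM in WT single embryos. KO replicates 1 and 3 were its lowest and highest libraries, and its log2 change was -0.10 (SE 0.23, edgeR adjusted p = 0.839).

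Of the 4 X-linked members, Rps4x and Rpl10 had log2 changes of 0.52 (SE 0.15) and 0.49 (SE 0.15), while Rpl36a and Rpl39 had 0.02 (SE 0.19; -0.015 with library totals only) and -0.12 (SE 0.18). Rps4x had 789, 844 and 765 CPM in KO, against 565, 587 and 575 CPM in WT single embryos, and did not overlap. With upper-quartile scaling and 3 other alternatives it passed, but not here (edgeR adjusted p = 0.0773). All 6 embryos are female by their labels.

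Mouse alleles of 6 members are known for a visible phenotype: Rpl24 (Belly spot and tail), Rpl38 (Tail short), Rps19 and Rps20 (dark skin), Rpl27a (Sooty foot ataxia) and Rps7. None passed in single embryos. Rpl27a and Rps7 had log2 changes of 0.56 (SE 0.19) and 0.53 (SE 0.16), Rpl24 and Rps19 had 0.43 (SE 0.18) and 0.31 (SE 0.16), and Rpl38 and Rps20 had 0.07 (SE 0.17) and -0.19 (SE 0.17).

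In pools no member passed in either direction, and none reached an unadjusted p under 0.05. Over all 16259 genes edgeR called 0% as well, and 4.26% (higher) and 2.34% (lower) had an unadjusted p below 0.05. DESeq2 called 71 genes there and no member. The median log2 change of members was 0.10, against 0.01 over all tested genes and -0.11 over the other genes with at least 100 CPM. The log2 change was positive in 62 members (80.5%, against 51.3% of all genes and 547 of the 2172 others with at least 100 CPM). In CPM, both KO pools were above both CTR pools in 50 members, 64.9% against 24.3% of all genes. In 0 members both were below, against 11.1%. CPM rests on library totals, with which the median log2 change of all genes was itself 0.10. Rpl6, with a log2 change of -0.004 by edgeR, is among the 50. The share among other genes with at least 100 CPM was not computed. The members' median less that of all genes was 0.09, and -0.01 without CTR pool 2.

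Rps12 had the smallest p among the members in pools. It had 213 and 348 CPM in KO pools, against 185 and 226 CPM in CTR pools (log2 change 0.35, SE 0.21, edgeR adjusted p = 0.834). KO pool 2 stood apart and KO pool 1 lay between the CTR pools. Rps21 and Rpl38 followed with log2 changes of 0.26 (SE 0.17) and 0.25 (SE 0.17). In the lower direction Rps23 had -0.13 (SE 0.16), Rpl3 -0.11 (SE 0.16) and Rps6 -0.10 (SE 0.17). Rps6 had 697 and 670 CPM in KO pools, against 724 and 656 CPM in CTR pools, which bracketed them.

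The 10 members that rose in single embryos had log2 changes of -0.10 to 0.15 in pools, with a median of -0.005 and 4 of 10 positive. Rpl6 had 326 and 327 CPM in KO pools, against 318 and 298 CPM in CTR pools (log2 change -0.004, SE 0.17, edgeR adjusted p = 0.998; 0.084 with library totals and 0.044 with upper-quartile factors). In all 10 genes every pool of either genotype lay above every WT single embryo, as in 40 of all 77 members. In 6 of the 10 (Rpl6, Rps3a1, Rps13, Rpl13, Rps6 and Rpl29) every pool also lay below every KO single embryo. These 6 thus had their lowest values in WT single embryos and their highest in KO single embryos, with KO and CTR pools together between them. Of all 77 members 7 had this order. The 10 were selected by their rise in the same single embryos, so their order is partly set by that choice. The counts over all genes were not made.

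The difference between the KO effects of single embryos and pools was tested by itself. No member passed over 15878 genes, where 0% were called higher and 0.0063% lower. An unadjusted p under 0.05 was reached by 18 members in the direction of a higher change in single embryos and by 1 in the other, 23.4% and 1.3% of members against 8.1% and 6.55% of all genes. The median difference was 0.23 in members and -0.05 over all genes. Over the 2172 other genes with at least 100 CPM it was 0.36, so a higher change in single embryos was not particular to the members. Rpl6 had a difference of 1.02 on the log2 scale (SE 0.23), Rpl15 of 1.05 (SE 0.30) and Rpl7 of 0.92 (SE 0.26), each with an edgeR adjusted p of 0.235. DESeq2 called 9 members and 544 of 15878 genes in this contrast. Without a filter on low counts, edgeR called 3 members and 548 of 26290 genes. The average of both KO effects was positive in 73 of 77 members (94.8% against 52.7% of all genes), and no member passed, against 0.0378% of genes called higher and 0.214% lower.

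Across the 77 members, the log2 changes of the 2 sets ran opposite to each other. Pearson's r was -0.674 and Spearman's rho -0.703, as a description over genes that share the same 10 libraries, and genes are not independent replicates. In both sets 46 members were positive, 15 only in single embryos and 16 only in pools, and none was negative in both. Short transcripts lay high in pools but spread to both sides in single embryos, from -0.50 to 0.73 with 9 of 17 positive. The 17 members under 500 bases had a median log2 change of 0.02 in single embryos and 0.18 in pools, and all 17 were positive in pools. The 43 members of at least 500 but under 1000 bases had 0.37 in single embryos and 0.09 in pools. The 17 members of 1000 bases or more had 0.35 in single embryos and 0.05 in pools. Other genes with at least 100 CPM, split at 1000 bases only, differed little by length. Those under 1000 bases had medians of 0.26 in single embryos and -0.08 in pools, and longer ones 0.25 and -0.12. These other genes were not split at 500 bases. Whether the medians of the shortest members are particular to the members was thus not tested. Over the 77 members, the change had an r of 0.27 with log2 length in single embryos and -0.40 in pools. With the mean level on the log2 CPM scale it had an r of -0.03 and -0.13.

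**Figure D4:**
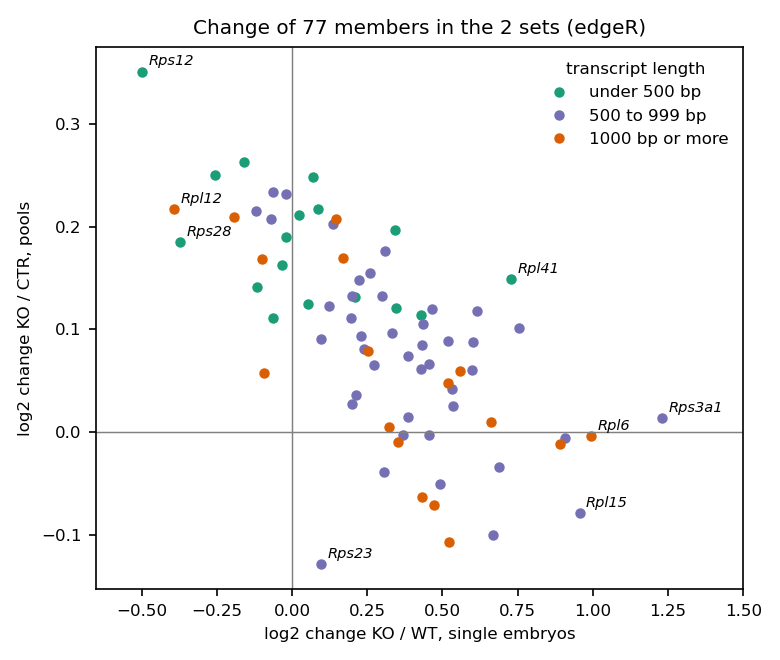
Log2 change of each of the 77 members in single embryos (KO over WT, horizontal axis) and in pools (KO over CTR, vertical axis), by edgeR, coloured by transcript length. Rps12 (-0.50 and 0.35) and Rps3a1 (1.23 and 0.01) mark the ends of a falling cloud with a Pearson's r of -0.674, and the members under 500 bases lie high in pools.

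Replicates of 1 genotype differed along the same order of members. The log2 ratio of KO pool 2 to KO pool 1, which share a genotype and no library with the single embryos, had an r of -0.788 with the single-embryo change (rho -0.781, n = 77 members). The ratio of CTR pool 2 to CTR pool 1 had an r of -0.717 (rho -0.691). Within WT single embryos, the ratio of replicate 2 to replicate 1 had an r of 0.729, but those libraries also enter the change. The inverse relation between the sets rested on KO pool 2: against the mean of the CTR pools, KO pool 2 had an r of -0.791 with the single-embryo change and KO pool 1 of 0.269. The members thus varied along a common order between libraries of the same genotype as well as between genotypes, and how much of the single-embryo change follows that order was not tested.

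Single members show this order. Rps12 had 348 CPM in KO pool 2 and 213 in KO pool 1, and Rpl22 had 1111 and 728 CPM in the same libraries; Rpl22 was chosen after its values were seen. Rpl12 had 539 and 340 CPM there. Rpl15 ran the other way, with 280 CPM in KO pool 2 and 334 in KO pool 1, and so did Rplp0, with 1320 and 1632 CPM. In all, 67 of 77 members had a higher CPM in KO pool 2 than in KO pool 1. The median log2 ratio of members was 0.16, near the 0.13 of all genes, so most of this shift was not particular to the members. The share of all genes that were higher there was not computed.

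**Figure D5:**
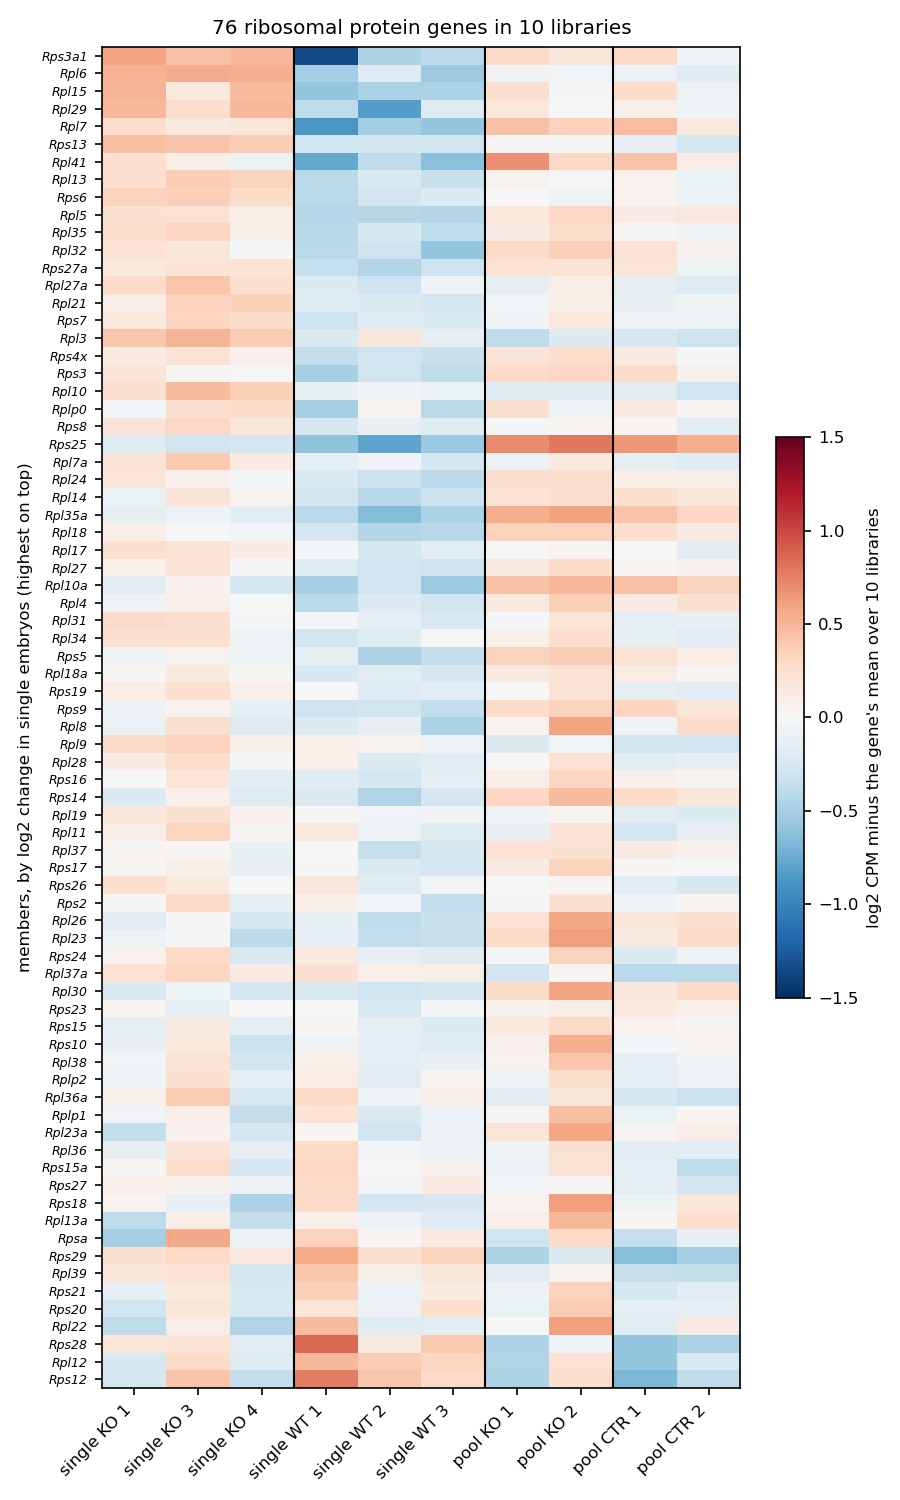
Log2 CPM of 76 of the 77 members (rows, highest single-embryo change on top) in 10 libraries (columns), less that member's mean over the libraries, with red above and blue below the mean. WT single embryos are blue at the top and red at the bottom, and KO pool 2 is red in many of the lower rows.

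Single embryos and pools of 1 genotype were also compared, where embryo number, sex and library input go with the set and cannot be told apart. In WT single embryos 27 members were lower than in CTR pools (35.1%, against 6.22% of all genes) and 2 higher (2.60%, against 4.02%), by edgeR at 5%. Among the 2172 other genes with at least 100 CPM, 26.7% were lower and 7.83% higher. Of the 324 of these with a transcript under 1000 bases, 53.1% were lower. The median log2 difference was -0.37 in the members and -0.37 in the 2172 other genes, so abundant genes in general were lower too. In KO single embryos 1 member was lower than in KO pools (1.3%, against 0.397% of all genes) and none higher (against 0.063%). Without CTR pool 1 the 27 fell to 1, and without CTR pool 2 to 13. The lowest of the 4 group means was that of WT single embryos in 46 members, of CTR pools in 25, of KO single embryos in 5 and of KO pools in 1. The highest was that of KO pools in 42 members. These means are in CPM, and the same counts over all genes were not made, so this order is not shown to be particular to the members.

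The few calls outside the main pattern were named after their values were seen. Rps25, a small-subunit protein used by some viral internal ribosome entry sites, was the member lower in KO single embryos than in KO pools. It had 587, 539 and 556 CPM in KO single embryos, against 1086 and 1147 CPM in KO pools, a log2 difference of -1.04 (edgeR adjusted p = 0.0108). The WT single embryos had 436, 384 and 451 CPM of it, against 1039 and 965 CPM in CTR pools (log2 difference -1.45, edgeR adjusted p = 0.000735). The call in KO was lost without KO single embryo 4 or either KO pool. Rps28 and Rps29, 2 short members, were the ones higher in WT single embryos than in CTR pools. Rps29 had 1695, 1356 and 1454 CPM in WT single embryos, against 738 and 816 CPM in CTR pools (log2 difference 0.74, edgeR adjusted p = 0.0138). Both calls were lost without CTR pool 1 or CTR pool 2, and that of Rps28 also without WT single embryo 1 or 3.

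Genes that work with the ribosomal proteins were listed beside them, and none of these passed in pools. Rack1 and Fau, whose products are ribosomal proteins under other names, had log2 changes of 0.50 (SE 0.14) and 0.58 (SE 0.17) in single embryos, and neither passed. Rack1 had 1967, 2225 and 1825 CPM in KO, against 1415, 1558 and 1406 CPM in WT single embryos, with no overlap. Of 8 tested paralogs none passed. Rpl22l1, which can stand in for Rpl22, had -0.96 (SE 0.29), with 46.8, 69.0 and 55.6 CPM in KO and 135, 69.2 and 134 CPM in WT single embryos. Rpl7l1 and Rps4l had 0.82 (SE 0.22) and 0.62 (SE 0.20).

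Of 16 translation factors and other genes with pyrimidine-tract mRNAs, 0 passed, with a median of 0.41 and 15 positive. Naca, Eef1g and Hnrnpa1 had the smallest p there, with log2 changes of 0.63, 0.58 and 0.86. Of 30 ribosome assembly factors 2 rose (6.67%, against 1.16% of all genes): Gtpbp4, a nucleolar GTPase of large-subunit assembly, by 0.78 (SE 0.18, edgeR adjusted p = 0.0371), and Eif6, which keeps the subunits apart, by 0.89 (SE 0.22, edgeR adjusted p = 0.0454). Each call held under 11 of 17 alternatives. Both were lost without any 1 of the single embryos other than KO replicate 3, and with the replicate number as a block, where the edgeR adjusted p was highest (0.361 for Gtpbp4 and 0.214 for Eif6). Gtpbp4 had 338, 322 and 348 CPM in KO, against 180, 222 and 204 CPM in WT single embryos. Bop1 had 0.96 (SE 0.26) and did not pass. Of 11 genes of RNA polymerase I transcription and of 12 of the mTOR and LARP1 pathway none passed, with medians of 0.20 and -0.06. Polr1e, Polr1c and Taf1b had log2 changes of 1.09, 0.71 and 1.02, and Tsc1, Rheb and Mlst8 had -0.91, 0.61 and 1.06.

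The proteins of the mitochondrial ribosome, a separate machine, had a median log2 change of 0.43 in single embryos, and 72 of 77 were positive. Of these genes 1 rose (1.3%, near the 1.16% of all genes): Mrpl46, by 0.84 (SE 0.21, edgeR adjusted p = 0.0453). Mrps10 and Mrpl24 had 0.83 (SE 0.21) and 1.0 (SE 0.26) and did not pass. Their share of counts was 1.38% ± 0.103 in KO and 1.09% ± 0.0557 in WT single embryos (SD, n = 3 each), without overlap. In pools it was 1.54% in KO and 1.59% in CTR on average, with a median log2 change of -0.13. For comparison, the cytosolic members had medians of 0.31 in single embryos and 0.10 in pools.

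Mammalian genomes hold many processed copies of these genes, and 12 rows of the table bear the name of such a pseudogene. They held 0.0163% to 0.0485% of counts. Rpl14-ps1 had means of 112 CPM in KO and 103 CPM in WT single embryos, and 243 CPM in KO and 228 CPM in CTR pools. Rpl34-ps1 had 8.73 CPM in KO and 10.7 CPM in WT single embryos, but 123 CPM in KO and 116 CPM in CTR pools. Rps15a-ps6 had 69.3 CPM in KO and 67.6 CPM in WT single embryos, and 49.0 CPM in KO and 34.4 CPM in CTR pools. Adding each row to its parent gene left 10 members higher in single embryos, the same 10. Copies under other names can share reads with a member, and the sources used here do not state how reads with several matches were counted.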

How the data were processed

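The authors deposited whole-number read counts per gene for 10 libraries, without normalization. Per the labels' protocols, cDNA was made with SMART-Seq v4, libraries with Nextera XT, and reads were single-end of 75 bases. Per the submitters' processing notes the tools were STAR 2.7.6a, RSEM 1.3.1 and fastp 0.21.0, with mm10 as assembly. The sources used here do not state which tool counted, or how it treated strand and reads that match several genes. There were no molecular identifiers.

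The members and lists were chosen with earlier results of these data known. The test was edgeR 4.0.16 in R 4.3.3 (filterByExpr, TMM, quasi-likelihood F test, two-sided, Benjamini-Hochberg at 5% over all tested genes), each set by itself. The difference and average of the KO effects and the comparisons of single embryos with pools used 1 fit over 4 groups. Standard errors come from the log2 change and its F value. CPM was computed from library totals. Alternatives were other scalings and filters, DESeq2 1.42.0, limma-voom (limma 3.58.1), robust fitting, a block for the replicate number, a joint fit of all 10 libraries, pseudogene rows added to their parents, and leaving out each library.

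Genes were named by rule: members past 5%, the 3 with the smallest p per direction and set, the 2 highest and lowest in CPM, fixed roles, up to 3 per further list, and Jarid2. 1 member and 1 gene of a further list are not reported by name here. Transcript lengths are of the shortest best-ranked coding transcript (APPRIS) of GENCODE M21. On simulated counts, edgeR recovered 9.47% of 2-fold and 46.7% of 4-fold changes in the single-embryo design (13174 genes). In pools it recovered 47.4% and 87.0% (15735 genes). The changed genes were drawn at random from all genes that passed the filter on low counts. The rate for genes as abundant as the members was not computed. Libraries of the same group differed well beyond sampling noise (chi-square per gene at least 45.6).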

Additional observations from a re-analysis of the deposited data

How the results depend on the processing

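The number of members called higher in single embryos was 10. It was 17 with a mean of at least 10 CPM, 22 with DESeq2 and 24 with all 10 libraries in one fit. With the replicate number as a block it was 0, and it ran from 0 to 13 with 1 library left out. The other scalings, limma-voom, robust fitting, no filter and pseudogene rows added called 10 to 15. Calls over all genes, in both directions together, moved too. They were 605 of 13830 in the main fit, 1287 of 8146 with at least 10 CPM and 1957 of 13830 with DESeq2. The joint fit had 1667 of 15878, the block 187 of 13830 and no filter 1715 of 23012. Same-numbered single embryos had correlations of -0.014 and -0.076, and crossed ones -0.14 to 0.14. With 2 such pairs this cannot decide whether the numbers pair the embryos. KO replicate 4 and WT replicate 2 have no partner of the same number, so the KO effect of the block rests on the 2 pairs. Same-numbered pools had 0.32 and crossed ones -0.32, but 2 pairs cannot decide whether the numbers pair the pools; the block called 39 genes there, against 0 without it, and 0 members. The block could not be fitted for single embryos against pools. Leaving out 1 pool leaves a lone library in its arm, which is assumed to vary like the other group. For the difference between sets (0 members) there were 3 with no filter and 9 with DESeq2. For the average (0) there was 1 with no filter, 1 with at least 10 CPM, 5 with DESeq2 and 1 with limma-voom. Over all genes the difference had 1 call, 548 with no filter and 544 with DESeq2. The average had 40, and 579, 141, 484 and 143 in the order given. WT single embryos against CTR pools had 1626. That was 1858 with upper-quartile, 1550 with library totals, 1952 with at least 10 CPM and 2259 with limma-voom. KO single embryos against KO pools had 73, and 96, 300, 94, 430 and 181 in the order given below. Against CTR pools, WT single embryos had 27 members lower (16 with library totals only; 1 to 24 with a library left out) and 2 higher (1 with upper-quartile, 5 with library totals, 4 with at least 10 CPM, 4 with limma-voom; 0 to 2 with a library left out). Against KO pools, KO single embryos had 1 lower (2 with upper-quartile, 2 with no filter, 2 with at least 10 CPM, 7 with DESeq2, 5 with limma-voom; 0 to 1 with a library left out) and 0 higher (1 with DESeq2 and 1 with limma-voom).

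The members' median log2 change stayed above 0 under each alternative, at 0.25 to 0.36 for single embryos and 0.04 to 0.19 for pools. With library totals only, the median of all genes was 0.10 in pools and -0.21 for the difference between sets. Signs of some log2 changes near 0 turned. In single embryos Rps23 was -0.027 with the block, Rplp1 was 0.025 with DESeq2 and with its size factors, 0.033 with upper-quartile and 0.0077 with all libraries, and Rpl36a was -0.015 with library totals. In pools Rplp0 was 0.010 and Rpl10 0.039 with library totals, Rpl10 was 0.0095 with at least 10 CPM, Rpl5 was -0.011 with DESeq2 and with its size factors, and Rpl6 was 0.044 with upper-quartile, 0.084 with library totals, 0.056 with at least 10 CPM and 0.0027 with all libraries. With 1 library left out, the single-embryo values that turned ran from -0.13 to 0.10 for Rplp1, -0.045 to 0.11 for Rplp2, -0.23 to 0.0066 for Rpl39, -0.079 to 0.15 for Rpl36a, -0.37 to 0.085 for Rpsa, -0.50 to 0.18 for Rpl34-ps1 and -0.15 to 0.24 for Rps15a-ps6. Those in pools ran from -0.20 to 0.00023 for Rps6, -0.31 to 0.13 for Rplp0, -0.0067 to 0.021 for Rpl5, -0.00019 to 0.12 for Rpl27a, -0.15 to 0.049 for Rpl10, -0.018 to 0.20 for Rps4x, -0.084 to 0.38 for Rpsa and -0.078 to 0.069 for Rpl6. The causes were not tested. Counting error is small for these genes, and the number of embryos and pools limits the precision.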
